A study of Mus musculus with 22 samples.

Results

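Resistin-like and chitinase-like proteins are secreted proteins that airway and alveolar epithelium and macrophages release in allergic and parasitic lung disease. Here 7 genes were followed in mouse lung epithelium: the resistin-like genes Retnla and Retnlb, the chitinase-like genes Chil1, Chil3 and Chil4, the active chitinase Chia1, and Clca1, a secreted product of goblet cells. The genes were chosen by name with the expression values of all 22 libraries and their fold changes in view, so every difference and call below describes these libraries and is no independent test. Of 16674 genes in the series, 15958 were measured at 6 months, with 7 of 7 of these genes among them, and 13750 at late gestation (E18.5), with 4 of 7 (Retnla, Retnlb, Chil1 and Chia1). Chil3, Chil4 and Clca1 were not analysed here at E18.5.

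The study asked how the pair of neighbouring genes NANCI, a long noncoding RNA, and Nkx2-1, the homeodomain factor that specifies lung epithelium, keeps Nkx2-1 expression steady. Double mice carried 1 copy each of both altered alleles (NANCI-CreERT2:RFP/+:Nkx2.1-GFP/+), Nkx mice 1 copy of the reporter-named Nkx2.1 allele (Nkx2.1-GFP/+), NANCI mice 2 copies of the altered NANCI allele (NANCI-CreERT2:RFP/CreERT2:RFP), and WT mice are labelled NANCI-+/+. At 6 months there were 4 Double, 3 Nkx and 3 WT libraries, from cells sorted by flow cytometry as positive for EpCAM and negative for CD45 and CD31. At E18.5 there were 3 libraries each of Double, Nkx, NANCI and WT mice, from EpCAM-positive cells pulled down on magnetic beads with no gate against other cells named. CreERT2 is a Cre recombinase that acts when tamoxifen is given, and the labels name neither a treatment, a sex, a strain, nor which cells the alleles act in. Whether each library is a separate animal is also not stated, so the p-values cover only how far these libraries vary, and that variation may be technical.

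The values are log2 expression, quantile-normalized within each age as judged from the files, and read depth is unknown. Epcam lay between 12.78 and 14.00 in all 22 libraries, and Nkx2-1 between 13.75 and 14.95. Epcam was 0.75 ± 0.10 higher in Double than in WT at 6 months (limma adjusted p = 0.000218). In the 6-month libraries Nkx2-1 averaged 14.03 in Double, 13.86 in Nkx and 14.37 in WT, and no comparison at either age passed the threshold for it. Every 6-month Nkx library (13.77 to 13.96) still lay below every WT library (14.17 to 14.55) for Nkx2-1. Double libraries (13.75 to 14.43) overlapped both. Pearson correlations between libraries over all genes were 0.859 to 0.977 at 6 months and 0.910 to 0.985 at E18.5. By Xist and Y-linked genes, the 6-month libraries were female in 4 of 4 Double, 2 of 3 Nkx and 1 of 3 WT, and the E18.5 libraries in 2 of 3 Double, 2 of 3 Nkx, 0 of 3 NANCI and 2 of 3 WT. Genotype and sex were thus only in part separable at 6 months, and values from female libraries alone are given where they change a call. In that fit WT at 6 months is 1 library, whose own spread cannot be estimated. It is assumed to vary as the 4 Double and 2 Nkx libraries do, so the adjusted p of a comparison with it is no check on WT replicates.

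Most of these genes are textbook targets of type 2 immunity. The interleukins Il4 and Il13 bind a receptor that contains Il4ra and signal through the transcription factor Stat6, which switches on Retnla, Retnlb, Chil3, Chil4 and Clca1 in airway epithelium or in macrophages. Their proteins bind matrix or chitin, recruit leukocytes or shape mucus. Chil1 and Chia1 are also made by unchallenged lung epithelium, Chil1 by alveolar type 2 (AT2) cells.

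Several of the genes sit side by side. On GRCm38, Retnlb (chr16:48816856-48818892) and Retnla (chr16:48842551-48844461) lie on the plus strand, 23.7 kb apart, and their relative Retnlg (chr16:48872621-48874496) follows 28.2 kb further on. Chia1 (chr3:106113229-106132120, plus strand), Chil3 (chr3:106147554-106167564, minus strand) and Chil4 (chr3:106201490-106219507, minus strand) form a second group, with gaps of 15433 and 33925 bases. Clca1 (chr3:145003817-145032776, minus strand) and Chil1 (chr1:134182176-134190181, plus strand) stand alone among the 7.

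The upstream sequences of 3 genes are shown because the results below dwell on these genes. They are Retnla, the gene with the largest difference between genotypes, and the near-identical pair Chil3 and Chil4. This pair differs in size and spread of genotype differences: in Double against WT at 6 months Chil4 was called and Chil3 was not. Whether the sequences bear on these differences was not tested. The windows are RefSeq promoters on GRCm38.p6, cut where the first annotated transcript starts: Retnla chr16:48842359-48842550 on the plus strand, Chil3 chr3:106167565-106167814 and Chil4 chr3:106219508-106219729 on the minus strand, each 5′ to 3′ on the gene's own strand. In Retnla, capitals mark motif matches; in Chil3 and Chil4 they mark bases that differ between this pair or face a gap.
Retnla: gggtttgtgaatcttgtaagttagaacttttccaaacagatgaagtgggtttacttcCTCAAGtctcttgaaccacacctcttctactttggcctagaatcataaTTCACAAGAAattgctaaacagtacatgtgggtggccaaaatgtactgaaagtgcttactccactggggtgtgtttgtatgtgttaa
Chil3: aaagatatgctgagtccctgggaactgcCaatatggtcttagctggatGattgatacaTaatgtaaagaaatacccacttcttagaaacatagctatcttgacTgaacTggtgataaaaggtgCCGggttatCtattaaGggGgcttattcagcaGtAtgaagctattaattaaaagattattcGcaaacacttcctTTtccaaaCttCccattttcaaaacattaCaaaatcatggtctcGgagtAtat
Chil4: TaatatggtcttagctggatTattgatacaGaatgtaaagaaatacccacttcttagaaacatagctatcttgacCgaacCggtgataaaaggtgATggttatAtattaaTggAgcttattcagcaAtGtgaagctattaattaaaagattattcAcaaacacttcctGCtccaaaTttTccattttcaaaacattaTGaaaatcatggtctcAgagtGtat

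The Chil3 and Chil4 windows were identical at 201 of 221 aligned bases (91.0%), with 21 bases in capitals in each. The Retnla window held 1 match to TTCNNNNGAA, the palindrome bound by STAT6, 145 bases upstream of the RefSeq start, and 1 match to CTCAAG, a core bound by NKX2-1, 193 bases upstream. Over both strands of 250 bases before the start, 5.85% of 32851 RefSeq promoters held TTCNNNNGAA and 13.3% held CTCAAG. A further NK2-type core, CAAGTG, which can overlap CTCAAG by the letters CAAG, was in 11.6% of promoters and not in that of Retnla. None of these motifs occurred in the windows of Chil1, Chia1, Chil3 or Chil4. A match is a string of letters and not a binding site; 5 of the 7 genes had a RefSeq promoter.

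The near-identity of Chil3 and Chil4 also bears on their values. Of all 50-base stretches in their annotated coding transcripts, 17.9% of those of Chil3 and 18.46% of those of Chil4 occurred in the other gene (275 stretches), so reads there could have been split between the genes, depending on the authors' counting. The other 5 genes shared no such stretch with any listed relative.

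At 6 months, 5 of 7 genes rose in Double libraries against WT: Retnla, Chil4, Retnlb, Clca1 and Chil1. This compares with 18.4% of all genes called higher and 17.9% called lower in that comparison (limma, Benjamini-Hochberg adjusted p under 0.05). In the same 5 genes every Double library lay above every WT library, against 21.1% of all genes. Retnlb and Chil4 were low outside Double and may have passed the authors' unknown gene filter only through Double libraries. Their separation from WT and Nkx could then be partly set by that filter, and the all-gene shares are no test of it. Against Nkx libraries, 3 of 7 rose in Double libraries, Chil4, Retnlb and Retnla, where 10.2% of all genes were called higher and 11.5% lower. The same 3 had every Double library above every Nkx library, against 16.1% of all genes. In Nkx libraries against WT, Retnla alone of the 7 rose, where 1.52% of all genes were called higher and 1.11% lower. Every Nkx library lay above every WT library for 3 of 7 genes, Retnla, Clca1 and Chil1, against 16.1% of all genes. The median log2 difference of the 7 genes was 3.01 in Double against WT, 2.12 in Double against Nkx and 0.31 in Nkx against WT, beside 0.06, 0.03 and 0.01 over all genes. Double against WT and Nkx against WT share their WT libraries, and Double against Nkx shares libraries with both.

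**Figure D1:**
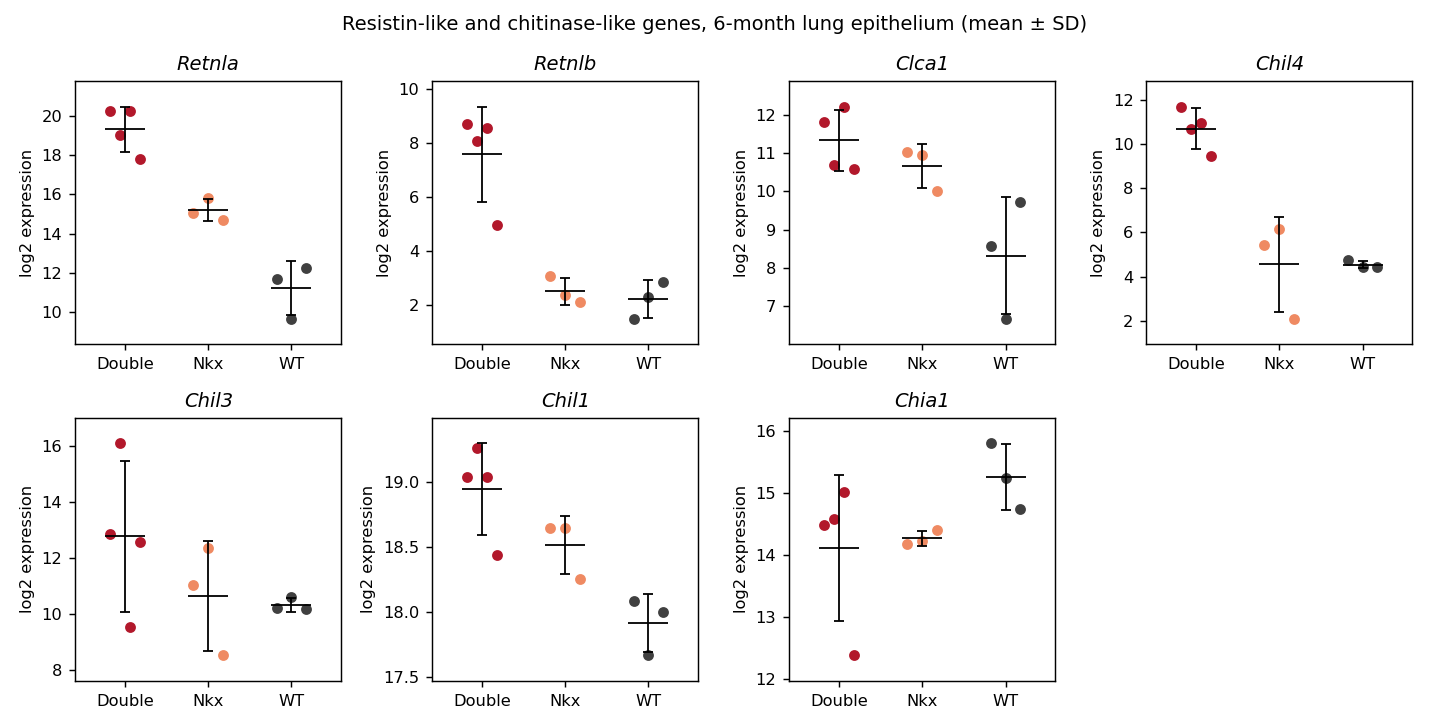
Log2 expression of the 7 genes at 6 months, 1 panel a gene, with each library as a point and the group mean ± SD as a line with bars, for Double (n = 4), Nkx (n = 3) and WT (n = 3). Retnla separates all 3 genotypes, Chil4 and Retnlb are high in Double libraries, and Chil3 is spread from 9.53 to 16.09 within Double.

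**Figure D2:**
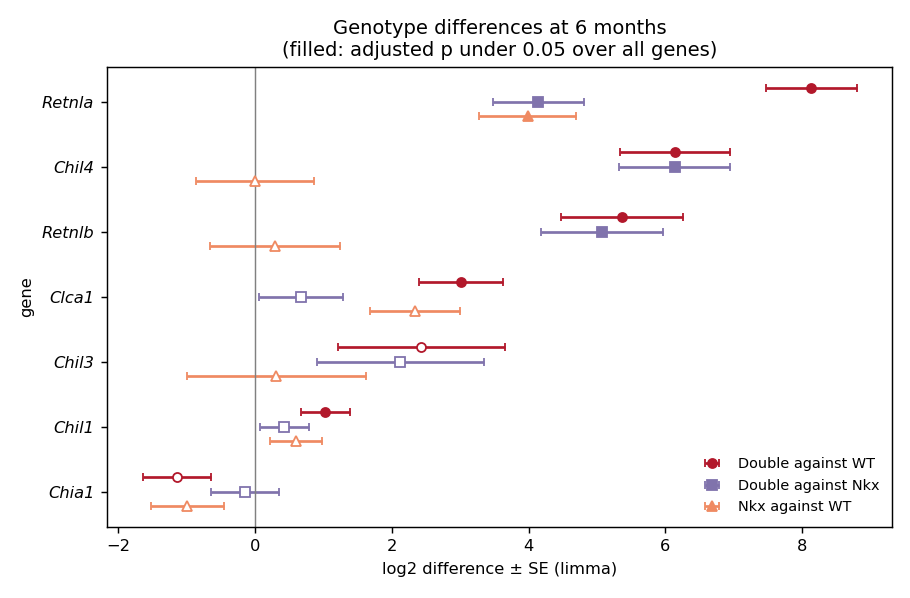
Log2 differences with SE from limma at 6 months for each of the 7 genes in Double against WT, Double against Nkx and Nkx against WT, with filled points where the adjusted p is under 0.05. Retnla differs by 8.13 in Double against WT and by 3.99 in Nkx against WT, while Chil4 differs by 6.14 in Double against WT and by 0.01 in Nkx against WT.

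Retnla, the resistin-like molecule first found in inflamed airways, had the largest difference. Its log2 values were 20.24, 19.04, 20.24 and 17.83 in Double libraries, 15.07, 15.80 and 14.71 in Nkx libraries and 11.70, 9.65 and 12.26 in WT libraries. All Double libraries lay above all Nkx libraries, and all Nkx libraries above all WT libraries. It alone of the 7 genes had this order without overlap, which 3.29% of all genes had (525 of 15958). Retnla was 8.13 ± 0.66 higher in Double than in WT on the log2 scale (SE, limma adjusted p = 9.19e-06), a fold of 281 once the log2 scale is undone. It was 4.15 ± 0.66 higher in Double than in Nkx (17.7-fold, adjusted p = 0.00148) and 3.99 ± 0.71 higher in Nkx than in WT (15.9-fold, adjusted p = 0.02).

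Quantile normalization makes these values a scale of rank, so the place of Retnla within each library says the same in another way. Counted from the highest value down, Retnla took places 2, 5, 2 and 12 in Double libraries, 99, 51 and 141 in Nkx libraries and 2322, 7806 and 1412 in WT libraries, among 15958 genes. No source used here states a correction of these values for gene length, so the places compare libraries and not genes. WT replicate 2 stood lowest, and the Nkx against WT call rested on few libraries. Without WT replicate 2 the Nkx against WT difference was 3.21 (adjusted p = 0.0717), without Nkx replicate 1 it was 4.05 (0.0696) and without Nkx replicate 2 it was 3.69 (0.0937). In female libraries alone it was 3.17 (adjusted p = 0.322, 2 Nkx and 1 WT library) and without limma's mean-variance trend 3.99 (0.0601). The Double against WT difference in female libraries alone was 7.08, with the 4 Double libraries set against 1 WT library. Its adjusted p of 0.00195 takes the spread from the Double and Nkx libraries.

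Retnlb, its neighbour and in mice a goblet cell product of the gut, was close to undetected outside Double libraries. Its log2 values were 8.71, 8.08, 8.57 and 4.94 in Double libraries, 3.07, 2.34 and 2.10 in Nkx libraries and 1.48, 2.29 and 2.85 in WT libraries. In Nkx replicates 1 and 2 and in WT replicate 1 it was at the lowest value of the library, so the differences depend on where that lowest value lies. Double replicate 4 stood apart below the other Double libraries and above all Nkx and WT libraries. The log2 difference was 5.37 ± 0.89 in Double against WT (limma adjusted p = 0.000792), 5.07 ± 0.89 in Double against Nkx (adjusted p = 0.00238) and 0.30 ± 0.95 in Nkx against WT (adjusted p = 0.882). With every value under 5 set to 5, the Double against WT and Double against Nkx differences were both 2.59.

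Clca1, a secreted protease that acts on chloride channels and marks goblet cells, lay above WT in both mutant genotypes. Clca1 log2 values were 11.81, 10.70, 12.22 and 10.60 in Double libraries, 11.04, 10.94 and 10.00 in Nkx libraries and 8.57, 6.68 and 9.71 in WT libraries. Double and Nkx libraries overlapped, and all of them lay above the WT libraries. Clca1 was 3.01 ± 0.62 higher in Double than in WT (8.04-fold, limma adjusted p = 0.0029). In female libraries alone that difference was 1.61 (adjusted p = 0.0868, with the spread taken from Double and Nkx libraries). The WT side of that value is 1 library, replicate 3, which had the highest WT value. The difference was 2.34 ± 0.66 in Nkx against WT (adjusted p = 0.0847) and 0.67 ± 0.62 in Double against Nkx (adjusted p = 0.479), neither past the threshold. Without WT replicate 3, Nkx against WT was 3.03 (adjusted p = 0.038). The difference also leaned on WT replicate 2 (6.68), as the other WT libraries (8.57 and 9.71) lay nearer to Nkx.

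Chil4, the chitinase-like protein Ym2 that mouse airway epithelium makes in allergic inflammation, was high in Double libraries and low in Nkx and WT libraries. Its log2 values were 11.69, 10.67, 10.94 and 9.46 in Double libraries, 5.42, 6.14 and 2.10 in Nkx libraries and 4.74, 4.44 and 4.45 in WT libraries. Every Double library lay above every Nkx and WT library, and the Nkx libraries lay on both sides of the WT libraries. The difference was 6.14 ± 0.81 both in Double against WT (70.6-fold, limma adjusted p = 0.000175) and in Double against Nkx (70.3-fold, adjusted p = 0.000524), and 0.01 ± 0.86 in Nkx against WT (adjusted p = 0.998). Nkx and WT values were low (2.10 to 6.14), so the size of these folds depends on where low values lie.

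Chil3, the chitinase-like protein Ym1 of alternatively activated macrophages, varied more within Double and Nkx mice than between genotypes. It had log2 values of 12.87, 16.09, 9.53 and 12.56 in Double libraries, 11.05, 12.36 and 8.52 in Nkx libraries and 10.21, 10.62 and 10.17 in WT libraries. Double replicate 3 and Nkx replicate 3 lay below all WT libraries. The difference was 2.43 ± 1.22 in Double against WT (limma adjusted p = 0.142), 2.12 ± 1.22 in Double against Nkx (adjusted p = 0.246) and 0.31 ± 1.31 in Nkx against WT (adjusted p = 0.914). None passed, and Double replicate 3 decided this: without it the difference was 3.51 against WT (adjusted p = 0.0191) and 3.198 against Nkx (adjusted p = 0.0433).

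Chil3 moved with leukocyte markers from library to library, although the sort gated against CD45. The mean log2 level of 8 leukocyte markers (8 of 8 measured) was 7.95, 9.80, 6.12 and 8.45 in Double libraries, 7.29, 7.98 and 5.82 in Nkx libraries and 7.25, 7.42 and 6.996 in WT libraries. For 13 of 14 macrophage markers it was 8.34, 9.28, 7.10 and 8.65 in Double, 7.93, 8.34 and 6.75 in Nkx and 7.20, 7.12 and 7.59 in WT. Double replicate 2 had the highest and Double replicate 3 and Nkx replicate 3 the lowest levels of both lists within their genotypes, as for Chil3. In WT libraries the leukocyte level had the order of Chil3. The macrophage level there had the reverse order, highest in replicate 3, where Chil3 was lowest. None of the 8 leukocyte markers passed the threshold in Double against WT, and 3 of 13 macrophage markers were higher and 1 lower. Ptprc, which encodes CD45, ranged from 5.90 to 9.01 in Double, from 6.91 to 8.14 in Nkx and from 7.36 to 8.44 in WT, and Adgre1, which encodes the macrophage protein F4/80, from 4.94 to 8.14 in Double, from 5.41 to 7.03 in Nkx and from 5.69 to 6.14 in WT. Neither was at a library's lowest value. The part of leukocytes in the Chil3 values was not tested, and in bulk RNA fewer cells of a type and less RNA per cell cannot be told apart.

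Within the Double libraries, Chil4 and Retnla did not follow these markers. Double replicate 3, with the lowest leukocyte level of the Double libraries (6.12), had Retnla at 20.24, Chil4 at 10.94, Retnlb at 8.57 and Clca1 at 12.22. Double replicate 2, with the highest leukocyte level (9.80), had Retnla at 19.04, Chil4 at 10.67, Retnlb at 8.08 and Clca1 at 10.70. Between these libraries Chil3 differed by more than these 4 genes did, with 9.53 in replicate 3 and 16.09 in replicate 2. Among the Nkx libraries, Chil4 and Retnla were lowest where the leukocyte level was lowest, in replicate 3, and highest in replicate 2, as Chil3 was.

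**Figure D3:**
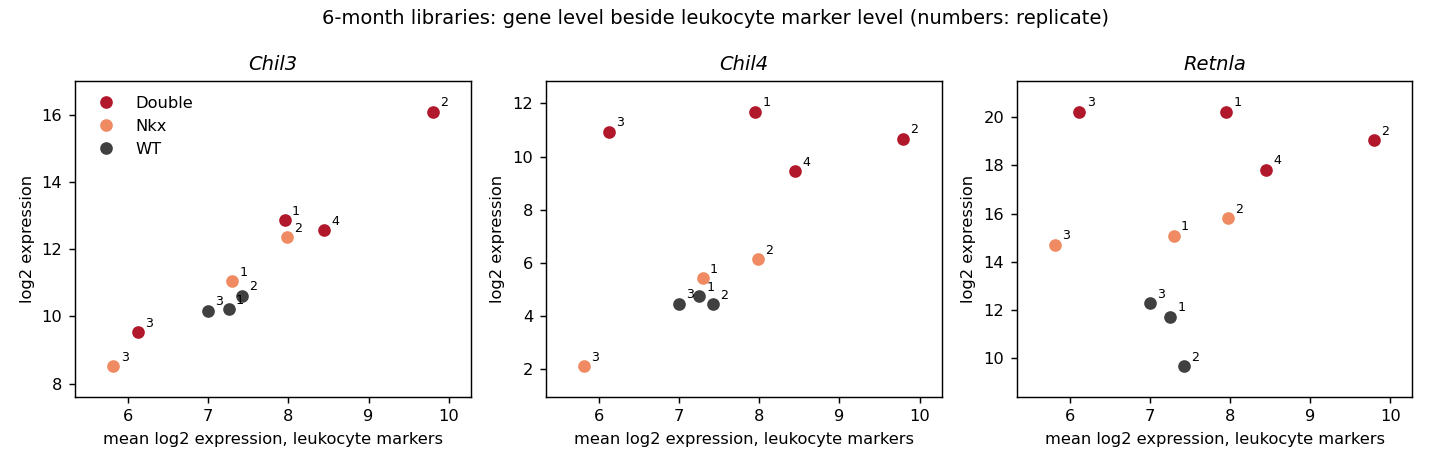
Log2 expression of Chil3, Chil4 and Retnla (y axis) against the mean log2 level of 8 leukocyte markers (x axis) in the 10 libraries of 6 months, coloured by genotype. The Chil3 points mostly climb with the leukocyte level over the 10 libraries, while Chil4 and Retnla are high in Double libraries at leukocyte levels from 6.12 to 9.80. Against this climb, Chil3 is lower in WT replicate 2 than in Nkx replicate 1. It is also lower in Nkx replicate 2 and Double replicate 4 than in Double replicate 1.

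Chil1, the chitin-binding protein of AT2 cells and macrophages, took places 4 to 14 from the top in the libraries of this age. On the log2 scale it was 19.04, 19.26, 19.04 and 18.44 in Double libraries, 18.64, 18.64 and 18.25 in Nkx libraries and 18.08, 17.66 and 18.00 in WT libraries. All Double and all Nkx libraries lay above all WT libraries, and Double and Nkx overlapped. Its difference was 1.03 ± 0.35 in Double against WT (2.04-fold, limma adjusted p = 0.04). The call was lost without any 1 of WT replicates 1 to 3 or of Double replicates 1 and 3, with adjusted p between 0.0524 and 0.136, and in female libraries alone (adjusted p = 0.394). It was also lost with both groups fitted alone (adjusted p = 0.108), with the sex pattern as a covariate (0.206) and with low values raised to 5 (0.0848). The difference was 0.43 ± 0.35 in Double against Nkx (adjusted p = 0.423) and 0.60 ± 0.38 in Nkx against WT (adjusted p = 0.382).

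Chia1, the acidic chitinase that cuts chitin in lung secretions and stomach, was the gene of the 7 whose differences were below 0, none of them past the threshold. Its log2 values were 14.49, 14.58, 15.01 and 12.38 in Double libraries, 14.17, 14.23 and 14.39 in Nkx libraries and 15.80, 15.23 and 14.74 in WT libraries. All Nkx libraries lay below all WT libraries, and Double replicate 4 lay below every other library. The difference was −1.14 ± 0.50 in Double against WT (limma adjusted p = 0.0958), −0.99 ± 0.53 in Nkx against WT (adjusted p = 0.302) and −0.15 ± 0.50 in Double against Nkx (adjusted p = 0.863). Double replicate 3 bore on this: without Double replicate 3 the Double against WT difference was −1.44 (adjusted p = 0.0436). The low Double replicate 4 (12.38) weighed the other way. The difference leaned on it, as the other Double libraries (14.49, 14.58 and 15.01) lay nearer to WT.

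Among 14 listed relatives of these genes, 9 were measured at 6 months. In Double against WT 4 of 9 rose and none fell, in Double against Nkx 1 of 9 rose, and in Nkx against WT 1 of 9 rose. The gene called in all 3 comparisons was Retnlg, the third resistin-like gene of the chromosome 16 cluster, known in mice from myeloid cells. Retnlg log2 values were 10.17, 9.18, 10.09 and 8.61 in Double libraries, 7.63, 8.31 and 7.38 in Nkx libraries and 6.24, 4.82 and 4.55 in WT libraries. All 3 genotypes were apart, in the order seen for Retnla, with differences of 4.31 ± 0.47 in Double against WT (limma adjusted p = 5.23e-05), 1.74 ± 0.47 in Double against Nkx (adjusted p = 0.0219) and 2.57 ± 0.51 in Nkx against WT (adjusted p = 0.0273). The resistin-like genes Retnla and Retnlg thus held the same order of genotypes, and Retnlb, on the other side of Retnla, did not separate Nkx from WT. In Double against WT, the chitinase-domain gene Chid1 was 0.50 ± 0.16 higher (adjusted p = 0.0284), and the Clca1 relatives Clca3a2 and Clca3b were 2.19 ± 0.70 (adjusted p = 0.0295) and 2.37 ± 0.77 higher (adjusted p = 0.0312).

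Genes of the type 2 pathway differed unevenly in RNA level at 6 months, and activity of the pathway was not measured. Of 7 listed ligands only Il33 and Il4 were measured. Il33, the epithelial alarm cytokine, was 0.96 ± 0.32 lower in Double than in WT by limma (log2 difference −0.96, adjusted p = 0.0349), and Il4, which did not pass, differed by 0.25 ± 0.53 (adjusted p = 0.75). Il4 was low in every library, from 3.93 in WT to 5.99 in Nkx, so a change in it could be missed. Of 8 measured receptors and signal transducers, 2 rose and 1 fell in Double against WT. Il4ra, the chain shared by the Il4 and Il13 receptors, ranged from 12.39 to 12.99 in Double libraries, from 11.79 to 12.12 in Nkx libraries and from 11.76 to 11.92 in WT libraries, a difference of 0.83 ± 0.14 in Double against WT (adjusted p = 0.000894) and of 0.69 ± 0.14 in Double against Nkx (adjusted p = 0.00507). Il13ra1, its partner chain, was 0.996 ± 0.17 higher in Double (adjusted p = 0.00106) and 0.93 ± 0.18 higher in Nkx (adjusted p = 0.028) than in WT. Il2rg, the receptor chain used by lymphocytes, fell by 1.74 in Double against WT (adjusted p = 0.0121) and by 1.58 against Nkx (adjusted p = 0.0309), and the kinase gene Tyk2 was 0.56 ± 0.10 higher in Double than in Nkx (adjusted p = 0.00293). The transducer Stat6, named after its values were seen, differed by −0.10 ± 0.09 in Double against WT (adjusted p = 0.431).

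Of 16 listed target genes, 12 were measured at 6 months, and 5 of the 16 are goblet cell genes that the goblet marker list also holds. In Double against WT 6 rose and 1 fell, in Double against Nkx 7 rose and 1 fell, and in Nkx against WT 3 rose and none fell. The smallest adjusted p in Double against WT belonged to the mucin Muc5ac (5.02 ± 0.31, limma adjusted p = 1.53e-06), the mucin-folding enzyme Agr2 (6.73 ± 0.46, adjusted p = 2.81e-06), the goblet cell transcription factor Spdef (2.60 ± 0.20, adjusted p = 6.3e-06) and the mucus protein Fcgbp (1.83 ± 0.24, adjusted p = 0.000154). These 4 are shared with the goblet list. Spdef, Muc5ac and Agr2 were also the 3 that rose in Nkx against WT, by 1.62 ± 0.21 (adjusted p = 0.00574), 1.74 ± 0.33 (adjusted p = 0.0241) and 2.20 ± 0.49 (adjusted p = 0.0416). The target that fell was Postn, a matrix protein that fibroblasts also make, by 3.21 in Double against WT (adjusted p = 0.000389) and by 2.57 against Nkx (adjusted p = 0.00317).

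Other marker lists moved in the same comparison. In Double against WT, 10 of 10 measured goblet markers rose, with mean levels of 11.7 (lowest) and 12.02 (highest) in Double, 8.82 and 9.34 in Nkx, and 7.26 and 8.15 in WT. Of 10 AT2 markers 7 fell, with means of 15.8 to 16.9 in Double, 17.6 in each Nkx library and 17.9 to 18.1 in WT. All 6 endothelial markers fell, with means of 8.45 to 9.57 in Double libraries, 10.9 to 11.8 in Nkx libraries and 11.2 to 12.6 in WT libraries, and so did all 6 mesenchymal markers, with means of 6.67 to 8.53 in Double libraries, 9.31 to 9.92 in Nkx libraries and 9.96 to 10.9 in WT libraries. Pecam1 stayed at 9.27 or above and Col1a1 at 6.90 or above in every library of this age. Ciliated markers fell in 7 of 8, with means of 10.4 to 10.9 in Double libraries, 11.3 to 12.1 in Nkx libraries and 11.5 to 12.1 in WT libraries, and AT1 markers in 4 of 8, with Double libraries at means of 11.8 to 12.5, Nkx libraries at 13.3 to 14.01 and WT libraries at 12.4 to 13.6. Of 10 gastric markers measured 6 rose and 2 fell, with Double libraries at means of 9.07 to 10.1, Nkx libraries at 7.71 to 8.16 and WT libraries at 6.75 to 7.04. Of 6 epithelial markers 4 rose, with Double libraries at means of 14.7 to 15.05, Nkx libraries at 14.02 to 14.3 and WT libraries at 13.91 to 13.95, and of 8 club cell markers 2 rose and 1 fell. The part of these cells in the values of the 7 genes was not tested.

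By the pattern over the 10 libraries of 6 months, the 7 genes had different nearest genes. For Chil3 these were Ctss, Tyrobp, Cd53, Cybb and Clec7a, genes of myeloid cells and of leukocytes at large, with Pearson r of 0.97 to 0.98. Ctss, Tyrobp and Cd53 belong to the leukocyte marker list used above, so their nearness to Chil3 is no separate observation. For Retnla they were Tmem98, Pigu, Gstk1, Slc1a1 and Syne4 (0.98 to 0.99), and for Chil1 the lysosomal tetraspanin Cd63, Cpq, Kars, Utp11 and Far2 (0.97 to 0.99). Retnlb was nearest to Ppp1r14d, the tight junction gene Tjp3, the protein-folding gene Pdia6, Zfand1 and Mybpc2 (0.97 to 0.98), and Chil4 to Pdia4, another protein-folding gene, Tgm1, Cib3, Trub1 and again Tjp3 (0.97 to 0.98). Clca1 was nearest to Ccdc116, the chemokine Ccl20, Eogt, Fcamr and Eif4ebp1 (0.94 to 0.98), and Chia1 to Nat9, Cdc23, Tbc1d17, Smim10l2a and Stxbp2 (0.89 to 0.93). These are descriptions over 10 points that share genotype, normalization and cell makeup.

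At E18.5 the differences were small or variable. In Nkx against WT, 1 of the 4 measured genes rose, Retnla, where 3.67% of all genes were called higher and 3.65% lower. Retnla and Chia1 had every Nkx library above every WT library, against 11.7% of all genes. In Double against WT none of the 4 passed in limma, 2 had an unadjusted p under 0.05, and all-gene calls were 7.13% higher and 7.47% lower. Chia1 and Retnlb had every Double library above every WT library, against 14% of all genes. Retnlb was low in WT libraries, so the limit of the unknown gene filter applies to it here too. In Double against Nkx none of the 4 passed and none had an unadjusted p under 0.05, where 0.00727% of all genes (1 gene) were called. In NANCI against WT none of the 4 passed and none had an unadjusted p under 0.05, where 0% of all genes passed and 426 had an unadjusted p under 0.05.

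**Figure D4:**
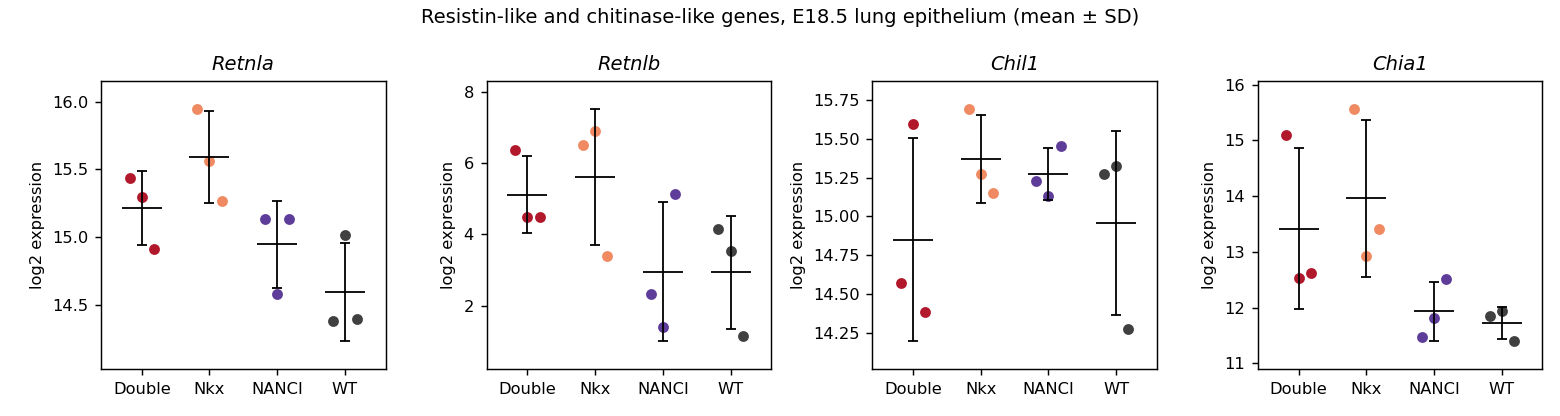
Log2 expression of Retnla, Retnlb, Chil1 and Chia1 at E18.5, 1 panel a gene, with each library as a point and the group mean ± SD as a line with bars, for Double, Nkx, NANCI and WT (n = 3 each). Retnla lies between 14.38 and 15.95 in all 12 libraries, and Chia1 has 1 high library each in Double and Nkx.

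Retnla at E18.5 had log2 values of 15.43, 15.30 and 14.91 in Double libraries, 15.95, 15.57 and 15.27 in Nkx libraries, 15.13, 14.58 and 15.13 in NANCI libraries and 14.38, 15.01 and 14.39 in WT libraries. The Nkx libraries were the highest group, and Double overlapped with all the others. Retnla was 0.998 ± 0.24 higher in Nkx than in WT (1.997-fold, limma adjusted p = 0.0232). The call was lost without Nkx replicate 1 (0.82, adjusted p = 0.0827), Nkx replicate 2 (1.01, adjusted p = 0.0636) or WT replicate 1 (0.89, adjusted p = 0.108), with both groups fitted alone (adjusted p = 0.0666) and in female libraries alone (1.05, adjusted p = 0.364). The difference was 0.62 ± 0.24 in Double against WT (adjusted p = 0.105), 0.35 ± 0.24 in NANCI against WT (adjusted p = 0.978) and −0.38 ± 0.24 in Double against Nkx (adjusted p = 0.9998). Without WT replicate 2, Double against WT was 0.83 (adjusted p = 0.0415).

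Chia1 at E18.5 had log2 values of 15.09, 12.54 and 12.62 in Double libraries, 15.57, 12.92 and 13.41 in Nkx libraries, 11.48, 11.81 and 12.51 in NANCI libraries and 11.84, 11.94 and 11.40 in WT libraries. Replicate 1 of both Double and Nkx stood over 2 log2 units above the other libraries of its group, and all Double and Nkx libraries lay above all WT and NANCI libraries. The difference was 1.69 ± 0.69 in Double against WT (limma adjusted p = 0.132), 2.24 ± 0.69 in Nkx against WT (adjusted p = 0.0724), 0.21 ± 0.69 in NANCI against WT (adjusted p = 0.983) and −0.55 ± 0.69 in Double against Nkx (adjusted p = 0.9998). None passed the threshold in the main fit. With the replicate number as a block, Nkx against WT did.

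Retnlb at E18.5 had log2 values of 6.36, 4.48 and 4.48 in Double libraries, 6.51, 6.89 and 3.40 in Nkx libraries, 2.32, 1.40 and 5.14 in NANCI libraries and 4.15, 3.52 and 1.13 in WT libraries. NANCI replicate 2 and WT replicate 3 were at the lowest value of their library, and the groups were wide. The difference was 2.18 ± 1.16 in Double against WT (limma adjusted p = 0.252), 2.67 ± 1.16 in Nkx against WT (adjusted p = 0.203), 0.02 ± 1.16 in NANCI against WT (adjusted p = 0.997) and −0.49 ± 1.16 in Double against Nkx (adjusted p = 0.9998).

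Chil1 at E18.5 had log2 values of 14.57, 15.60 and 14.38 in Double libraries, 15.69, 15.27 and 15.15 in Nkx libraries, 15.23, 15.13 and 15.46 in NANCI libraries and 15.27, 15.32 and 14.27 in WT libraries. All 4 genotypes overlapped. The difference was −0.10 ± 0.33 in Double against WT (limma adjusted p = 0.887), 0.42 ± 0.33 in Nkx against WT (adjusted p = 0.507), 0.32 ± 0.33 in NANCI against WT (adjusted p = 0.978) and −0.52 ± 0.33 in Double against Nkx (adjusted p = 0.9998). The Double against WT value turned on the setting: it was −0.68 and passed with array weights (adjusted p = 0.0199), was 0.29 in female libraries alone (adjusted p = 0.929), and ran from −0.48 to 0.13 when 1 library was left out, with no call.

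Leukocyte and macrophage markers were lower in Double and Nkx libraries than in WT libraries at E18.5. The mean level of 6 of 8 leukocyte markers was 2.25, 4.20 and 3.25 in Double, 3.47, 4.64 and 2.33 in Nkx, 5.22, 5.62 and 6.19 in NANCI and 6.41, 5.97 and 6.12 in WT, and the 6 of 14 macrophage markers measured gave 6.33 to 7.0005 in Double, 6.56 to 6.74 in Nkx, 7.67 to 7.80 in NANCI and 8.23 to 8.48 in WT. Of 6 leukocyte markers, 5 fell in Double and 2 fell in Nkx against WT, and of 6 macrophage markers 3 fell in each, with 1 higher in Double. Adgre1 was at the library's lowest value in 1 Double and 1 Nkx library. Goblet markers (11 of 11 measured) had means of 8.57 to 10.2 in Double, 8.76 to 9.44 in Nkx, 6.10 to 6.36 in NANCI and 4.92 to 5.53 in WT, and 10 of 11 rose in Double and in Nkx against WT. In Nkx against WT the 3 macrophage markers that fell were Adgre1, Mrc1 and Csf1r, while 2 of the other 3 lay above WT without passing (0.22, limma adjusted p = 0.514, and 0.12, adjusted p = 0.805). All 10 AT2 markers lay below WT in Nkx libraries, and 3 of them fell, namely Napsa (−2.03 on the log2 scale), Sftpa1 (−1.49) and Lyz2 (−2.52). In Double against WT all 10 also lay below WT, and 9 of them fell. AT2 means were 14.5 to 15.3 in Double, 15.1 to 15.6 in Nkx, 16.2 to 16.4 in NANCI and 16.1 to 16.5 in WT. Of 8 AT1 markers 2 fell in Nkx against WT (Rtkn2 and Pdpn), and of 7 gastric markers 3 rose. Of 7 club cell markers 1 rose and 1 fell. The part of these markers in the Retnla call in Nkx libraries was not tested.

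Of the related lists at E18.5, the type 2 targets held most of the calls. None of 3 measured relatives (Chid1, Ctbs and Ovgp1) and none of 5 receptors and transducers passed in any of the 4 comparisons. Il33 fell by 1.26 in Double (limma adjusted p = 0.000229) and by 0.90 in Nkx (adjusted p = 0.00389) against WT. Of 8 measured targets, 4 rose and 2 fell in both Double and Nkx against WT, and none passed in NANCI against WT or Double against Nkx. The 4 that rose in each are goblet cell genes that the goblet marker list also holds, so they are no separate set. The 2 that fell were Arg1 and Postn. Fcgbp was 5.55 ± 0.50 higher in Double (adjusted p = 4.94e-05) and 6.04 ± 0.50 higher in Nkx (adjusted p = 8.22e-05) than in WT, and Muc5ac was 4.05 ± 0.51 (adjusted p = 0.000282) and 2.82 ± 0.51 higher (adjusted p = 0.00537). Arg1 fell by 2.23 in Double (adjusted p = 0.005) and by 2.78 in Nkx (adjusted p = 0.00258).

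The genes nearest to Retnla over the 12 libraries of E18.5 were Lrg1, a secreted glycoprotein of inflammation, Dqx1, Pcdhgc4, the complement gene C3 and the secretory cell transcription factor Creb3l1, with Pearson r of 0.89 to 0.93. Those nearest to Chia1 were Ces1b, Selenbp2, Cwc22, Tpm3-rs7 and Nfic (0.87 to 0.92). Retnlb was nearest to Zswim7, Dpp7, Tspan14, Galnt10 and Psmd1 (0.83 to 0.91), and Chil1 to St5, Col26a1, Tmem25, Ftsj1 and Tap1 (0.83 to 0.87). None of these names recurs in the lists of nearest genes at 6 months.

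**Figure D5:**
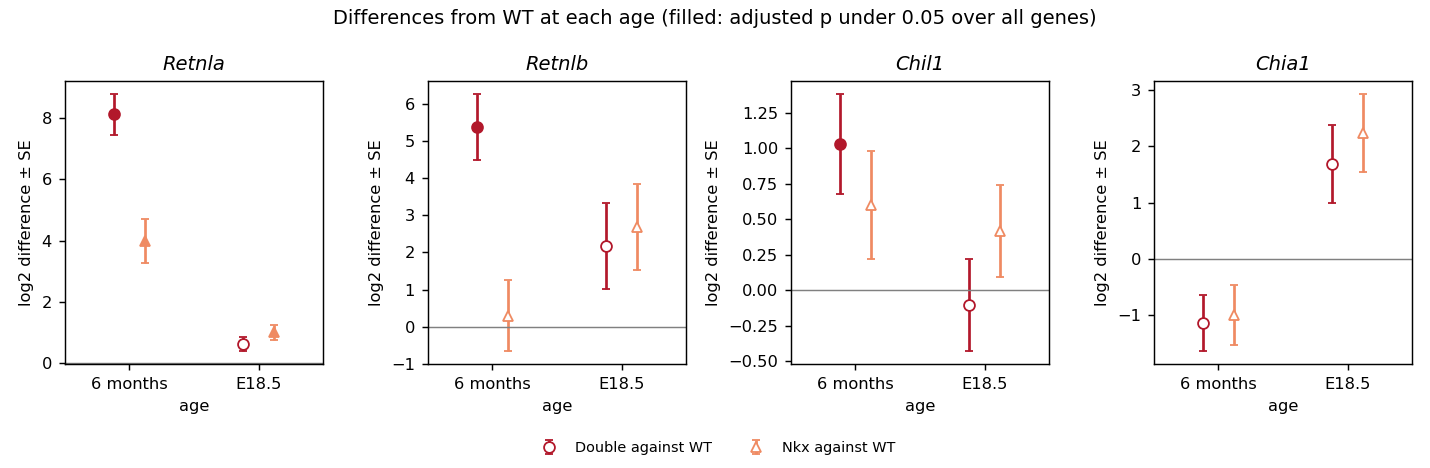
Log2 differences with SE from limma for Retnla, Retnlb, Chil1 and Chia1, the 4 genes measured at both ages, in Double against WT and Nkx against WT at 6 months and at E18.5, with filled points where the adjusted p is under 0.05. Retnla in Double against WT is 8.13 at 6 months and 0.62 at E18.5, and both Chia1 differences are below 0 at 6 months and above 0 at E18.5.

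Each of the 4 genes had a different sign at the 2 ages in at least 1 comparison. Chia1 was −1.14 at 6 months and 1.69 at E18.5 in Double against WT, and −0.99 at 6 months and 2.24 at E18.5 in Nkx against WT. Chil1 in Double against WT was 1.03 at 6 months and −0.10 at E18.5. In Double against Nkx, Retnla was 4.15 at 6 months and −0.38 at E18.5, Retnlb was 5.07 at 6 months and −0.49 at E18.5, and Chil1 was 0.43 at 6 months and −0.52 at E18.5. None of these E18.5 values passed the threshold in the main fit. At 6 months those of Chia1, and that of Chil1 in Double against Nkx, did not pass either. The E18.5 values of Chil1 in Double against WT and of Retnlb in Double against Nkx were smaller than their SE, so their signs are uncertain. Against WT, both Retnla and Retnlb lay above 0 at both ages in Double and in Nkx. These differences between ages were not tested, since each age was normalized by itself and enriched by its own method.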

How the data were processed

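RNA of enriched lung epithelial cells was measured in 22 libraries, with groups taken from the genotype labels. The deposited values are log2 expression, 1 per Ensembl gene and library, and all libraries of an age share nearly the same values by rank, so they were taken as quantile-normalized by the authors within each age. A shift shared by most genes is thus removed, and no source used here states read totals, strand or the authors' filter on genes. The submitters' processing notes name STAR, limma and mm9, without roles or versions. Symbols and coordinates are from GENCODE on GRCm38, not mm9, matched on gene ID for 15353 of 15958 genes at 6 months and 13638 of 13750 at E18.5. Upstream sequences are RefSeq's on GRCm38.p6.

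Each age was fitted with limma 3.58.1 in R 4.3.3, as 1 model with genotype as the factor and a mean-variance trend, and p-values were adjusted over all genes by Benjamini and Hochberg's method with a threshold of 0.05. Differences carry limma's SE; folds undo the log2 scale. The fit was tested on simulated data. The 7 genes and all lists were chosen with earlier results of these data known. Named are the 7 genes, up to 4 passing genes per list and comparison with the smallest adjusted p, the 5 genes of highest Pearson r with each of the 7 (mean of at least 5), and defining markers. The alternatives were both groups fitted alone, no trend, a minimum mean of 5, values under 5 set to 5, array weights, sex as covariate, replicate number as block and leaving out each library; female libraries alone were added after seeing the data.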

Additional observations from a re-analysis of the deposited data

Results flagged for a closer look

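Retnlb in the 6-month Double libraries had 1 library far below the other 3: replicate 4 at 4.94, beside 8.71, 8.08 and 8.57, a gap of 0.832 of the group's whole range. Only groups of 4 or more libraries were looked at in this way, which leaves the 7 genes in 6-month Double libraries, and chance marks about 1 in 20 such groups. Replicate 4 was the lowest Double library for most of the 7 genes. It was lowest also for Chia1 (12.38, beside 14.49, 14.58 and 15.01), Retnla (17.83), Chil4 (9.46), Clca1 (10.60) and Chil1 (18.44). Only Chil3 was lowest in another Double library, replicate 3 (9.53).

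Every Double and Nkx library had Chia1 below the WT mean at 6 months and above the WT mean at E18.5. In Nkx against WT it was −0.99 at 6 months and 2.24 at E18.5 on the log2 scale, and in Double against WT it was −1.14 at 6 months and 1.69 at E18.5. None of these Chia1 differences passed the threshold in the main fit. Every Double library had Retnla above the Nkx mean at 6 months and below it at E18.5, with differences of 4.15 at 6 months and −0.38 at E18.5. These differences between ages were not tested. Age, enrichment method and normalization changed together and cannot be told apart.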

How the results depend on the processing

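Retnla, Chil4 and Retnlb kept their calls in Double against WT and in Double against Nkx at 6 months under every alternative that could be fitted; the one with female libraries alone sets Double against 1 WT library, assumed to vary like the other groups. The number of the 7 genes called in Double against WT, 5 with all libraries, was 3 in female libraries alone and 4 to 6 when 1 library was left out; in Double against Nkx, 3 with all libraries, it was 3 to 4. In Nkx against WT at 6 months, 1 gene was called with all libraries, 0 without the trend and in female libraries alone, 2 with array weights, and 0 to 2 when 1 library was left out. At E18.5 the count in Nkx against WT, 1 with all libraries, was 0 with both groups fitted alone and in female libraries alone, 2 with array weights and 2 with the replicate number as a block, and 0 to 1 when 1 library was left out; in Double against WT, 0 with all libraries, it was 2 with array weights and 0 to 1 when 1 library was left out. The cause of these changes was not tested.

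Signs turned only for differences that did not pass with all libraries; 1 of them, Chil1 in Double against WT at E18.5, passed with array weights at −0.68 (adjusted p = 0.0199). At 6 months these were, in Nkx against WT, Chil3 at −0.18 and Chil4 at −0.58 with sex as covariate and Retnlb at −0.14 in female libraries alone, and in Double against Nkx, Chia1 at 0.011 with sex as covariate and 0.43 with the replicate block. At E18.5 they were Retnlb in NANCI against WT at −1.08 with array weights and Chil1 in Double against WT at 0.29 in female libraries alone. When 1 library was left out, the ranges that crossed 0 at 6 months were −0.79 to 1.23 (Chil4), −0.55 to 1.37 (Chil3) and −0.068 to 0.62 (Retnlb) in Nkx against WT and −0.45 to 0.43 (Chia1) in Double against Nkx. At E18.5 they were −1.08 to 0.80 (Retnlb), −0.084 to 0.43 (Chia1) and −0.026 to 0.50 (Chil1) in NANCI against WT, −0.48 to 0.13 (Chil1) in Double against WT, and −1.39 to 0.25 (Chia1) and −1.59 to 0.15 (Retnlb) in Double against Nkx.

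Libraries of different genotypes were compared by the correlation of their deviations over all genes. At 6 months same-numbered libraries had −0.30 to 0.13 (1 of 9 pairs over 0.1), and others −0.19 to 0.34 (5 of 24). At E18.5 these were −0.28 to 0.50 (6 of 18) and −0.51 to 0.43 (14 of 36). There, same-numbered Nkx and Double libraries had 0.30, 0.50 and 0.18, beside −0.43 to 0.13 for different numbers. Same-numbered pairs with a NANCI library had −0.28 to 0.06. Whether replicate numbers pair Nkx and Double libraries at E18.5 is unknown, and the main fit assumes no pairing. With the replicate block, Chil1 in Double against WT at 6 months had an adjusted p of 0.0697 and Chia1 in Nkx against WT at E18.5 one of 0.0459. With values under 5 set to 5, Retnlb in Nkx against WT at 6 months gave no value, since it was under 5 in all those libraries, and a minimum mean of 5 left Retnlb out. Read depth, which limits the precision of low values such as those of Retnlb, is unknown.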
